A study of Homo sapiens with 8 samples.

Results

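The genes described here write or read histone acetylation: acetyltransferases, the subunits that hold them in complexes, and proteins that carry a bromodomain. A list of 39 gene names fixed the set. A probe set belonged to a member when the platform annotation gave it exactly 1 gene symbol, that of the member, and of several such probe sets the one with the highest average stood for the gene. In this way 38 of the 39 were found among 19775 genes with such a probe set, and NCOA3 was not analysed here. All 38 passed the filter on dim probe sets, which left 13381 genes to test.

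RNA came from HCT116, an established human colorectal carcinoma line, 10 h after treatment. The 4 groups of 2 arrays each were vehicle, largazole at 20 nM, FK228 at 20 nM and SAHA at 2 µM. All 3 compounds inhibit histone deacetylases: largazole is a cyclic depsipeptide with a thioester, FK228 (romidepsin) a bicyclic depsipeptide with a disulfide, and SAHA (vorinostat) a hydroxamic acid. The study asked which genes each compound regulated relative to vehicle. Every value below is a log2 level of 1 probe set or a difference between such levels, and n = 2 arrays per group throughout. The labels call the experiment a duplicate without saying whether separate cultures were used, so the spread behind each p-value is that between these samples alone and may be technical.

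Acetyl groups on histone lysines are added by acetyltransferases and removed by deacetylases. A deacetylase inhibitor leaves the second step blocked, and acetylation of histones then builds up. Bromodomains are small folds that bind acetylated lysine, and they occur in acetyltransferases themselves, in chromatin remodelling enzymes, in general transcription factors and in the BET proteins. Most acetyltransferases work within complexes: KAT5 in NuA4, KAT8 in the MSL and NSL complexes, and KAT6A, KAT6B and KAT7 on scaffold proteins of the BRPF and JADE families.

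The arrays differed little in median level and in correlation within a group, and no direct measure of array or RNA quality was examined. Whether the values were scaled to like medians before deposit is not stated. Array medians lay between 4.47 and 4.51, and both arrays of a group correlated at 0.995 to 0.997 (Pearson's r across probe sets). Of 7 epithelial markers, 6 had a vehicle mean at or above the filter value of 4.49, among them EPCAM (12.58), KRT18 (12.83) and CDH1 (9.41), while LGALS4 stood at 3.87. Of 5 leukocyte markers with a probe set, only CD79A reached the filter value, and PTPRC, which defines leukocytes, stood at 2.47. Of 6 fibroblast markers 4 reached it and of 5 endothelial markers 2 did. The summed level of the epithelial list was 71.07 to 71.26 with vehicle, 71.22 to 71.72 with largazole and SAHA, and 69.68 to 69.92 with FK228. Within it CLDN4 fell by 0.64, 0.80 and 1.66 and CDH1 rose by 0.74, 0.78 and 0.69, all called. The fibroblast and endothelial sums ran over 27.56 to 28.21 (fibroblast) and 20.04 to 20.62 (endothelium) with vehicle, and over 27.68 to 29.51 and 19.69 to 20.56 on the treated arrays. Leukocyte sums were 18.41 to 18.84 with vehicle and 18.34 to 19.48 on the treated arrays. The fibroblast marker COL1A1 had a mean of 7.13 with vehicle and rose by 1.27 with largazole, 0.73 with SAHA and 0.60 with FK228. Whether these changes have a part in the results below was not tested.

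Promoter sequence is shown for members with large falls (JADE2, BRPF3 and BRD1) and for the large rise (SMARCA2). SMARCA4, the paralogue of SMARCA2, was added after its values were seen. NCOA2 fell further than BRPF3 and BRD1 with each compound, but no window was found for it. The windows are from RefSeq on GRCh38.p14 and run from 250 bases before to 50 after an annotated start, 5′ to 3′ on the gene's strand. Where RefSeq lists several starts the window with the most G and C is shown, and which start HCT116 cells use is not known here. Of the motifs searched, capitals mark GGGCGG (the GC box), CACGTG (the E-box) or CCGGAAG (an ETS core), on either strand. The windows lie at chr5:134526382-134526681 (plus strand) for JADE2, chr6:36196494-36196793 (plus strand) for BRPF3, chr22:49827824-49828123 (minus strand) for BRD1, chr9:2015097-2015396 (plus strand) for SMARCA2 and chr19:10960780-10961079 (plus strand) for SMARCA4.
JADE2: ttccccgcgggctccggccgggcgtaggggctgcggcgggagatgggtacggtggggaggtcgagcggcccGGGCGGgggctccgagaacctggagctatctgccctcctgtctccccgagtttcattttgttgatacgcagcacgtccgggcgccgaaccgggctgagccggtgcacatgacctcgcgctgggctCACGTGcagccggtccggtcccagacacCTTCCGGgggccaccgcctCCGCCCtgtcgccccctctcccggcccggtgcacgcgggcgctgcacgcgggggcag
BRPF3: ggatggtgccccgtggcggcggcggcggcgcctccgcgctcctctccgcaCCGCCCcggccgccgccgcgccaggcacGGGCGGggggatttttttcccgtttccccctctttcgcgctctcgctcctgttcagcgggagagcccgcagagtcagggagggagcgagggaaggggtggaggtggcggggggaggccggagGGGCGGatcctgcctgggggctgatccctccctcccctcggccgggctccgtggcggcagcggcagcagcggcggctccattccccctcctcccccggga
BRD1: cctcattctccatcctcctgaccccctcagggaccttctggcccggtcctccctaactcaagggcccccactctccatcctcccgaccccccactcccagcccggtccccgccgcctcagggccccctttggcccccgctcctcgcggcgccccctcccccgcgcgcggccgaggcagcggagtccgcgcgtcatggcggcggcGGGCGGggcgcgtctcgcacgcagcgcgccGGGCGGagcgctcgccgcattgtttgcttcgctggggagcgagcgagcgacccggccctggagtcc
SMARCA2: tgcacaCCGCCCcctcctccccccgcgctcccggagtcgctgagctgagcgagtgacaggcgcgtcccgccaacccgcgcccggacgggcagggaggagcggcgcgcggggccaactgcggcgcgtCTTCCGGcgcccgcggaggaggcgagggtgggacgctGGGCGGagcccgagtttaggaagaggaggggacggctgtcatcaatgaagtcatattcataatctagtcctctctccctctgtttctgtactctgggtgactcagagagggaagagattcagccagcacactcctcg
SMARCA4: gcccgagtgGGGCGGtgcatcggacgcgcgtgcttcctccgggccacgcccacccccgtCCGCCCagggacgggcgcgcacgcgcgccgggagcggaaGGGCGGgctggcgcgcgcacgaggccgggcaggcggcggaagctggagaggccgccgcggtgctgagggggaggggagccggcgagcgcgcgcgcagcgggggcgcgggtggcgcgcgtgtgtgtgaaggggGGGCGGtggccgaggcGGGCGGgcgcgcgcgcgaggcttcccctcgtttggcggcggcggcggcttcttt

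The G and C content of the 5 windows ran from 66.7% in SMARCA2 to 81.3% in SMARCA4. Each holds at least 2 GC boxes, whether the gene fell or rose. SMARCA4 holds 5 and BRPF3 holds 3. A window was found for 30 of the 38 members and for 10763 tested genes. In both sets the window with the most G and C was taken where several starts are listed, which favours high values. The median G and C content was 73.5% in the members and 67.0% in all of these genes. GGGCGG occurred in 83.3% of the members' windows against 73.7%, and CCGGAAG in 26.7% against 18.5%. CCAAT, the letters of the CCAAT box, occurred in 10.0% of the members' windows against 34.7% of all. CACGTG occurred in 6.67% against 9.87%, GCGCATG in 6.67% against 7.2% and AAGATGGCG, which holds the core of YY1 sites, in 10.0% against 3.85%. TATAAA, the letters of the TATA box, and TGACGTCA, the full cAMP response element, matched no member's window, against 4.91% and 3.18% of all. All motifs were searched on both strands, none of them contains another, and a match is a match of letters only.

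The members leaned towards lower levels with each compound. Called means an adjusted p under 0.05 in limma, adjusted by Benjamini-Hochberg over all 28985 probe sets tested. With largazole 18 of the 38 members fell and 3 rose, where 23.2% of all tested genes fell and 21.9% rose. With SAHA 20 members fell and 5 rose, against 25.2% and 22.1% of all genes. With FK228 23 fell and 6 rose, against 27.1% and 25.7%. The members that fell were thus 47.4%, 52.6% and 60.5% of the 38. The median difference of the members was -0.30 with largazole, -0.42 with SAHA and -0.49 with FK228, beside 0.00, -0.02 and 0.01 over all genes. A change of at least 2-fold was called downward for 5, 7 and 9 members and upward for 1 member, SMARCA2, with each compound. Over all tested genes 4.77%, 5.63% and 7.7% fell by at least 2-fold and 4.35%, 4.29% and 6.17% rose by as much. The 3 comparisons share the vehicle arrays, so they are not independent of each other. In bulk RNA, less transcript in every cell and fewer cells that make it cannot be told apart. Leaving out probe sets whose names end in _x_at or _s_at, which can pick up related transcripts, left 26 members, of which 11, 13 and 13 fell and 1, 3 and 4 rose. Over all genes that setting called 2295, 2482 and 2707 lower and 2240, 2288 and 2623 higher. Of the genes called, 49.4%, 48.0% and 49.2% were thus higher. Fewer genes were tested there than in the main setting, so these counts are not shares of the same total. The members' rises under that setting include BRD8 with SAHA and PBRM1 with FK228, which were called lower on the probe sets used elsewhere.

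**Figure D1:**
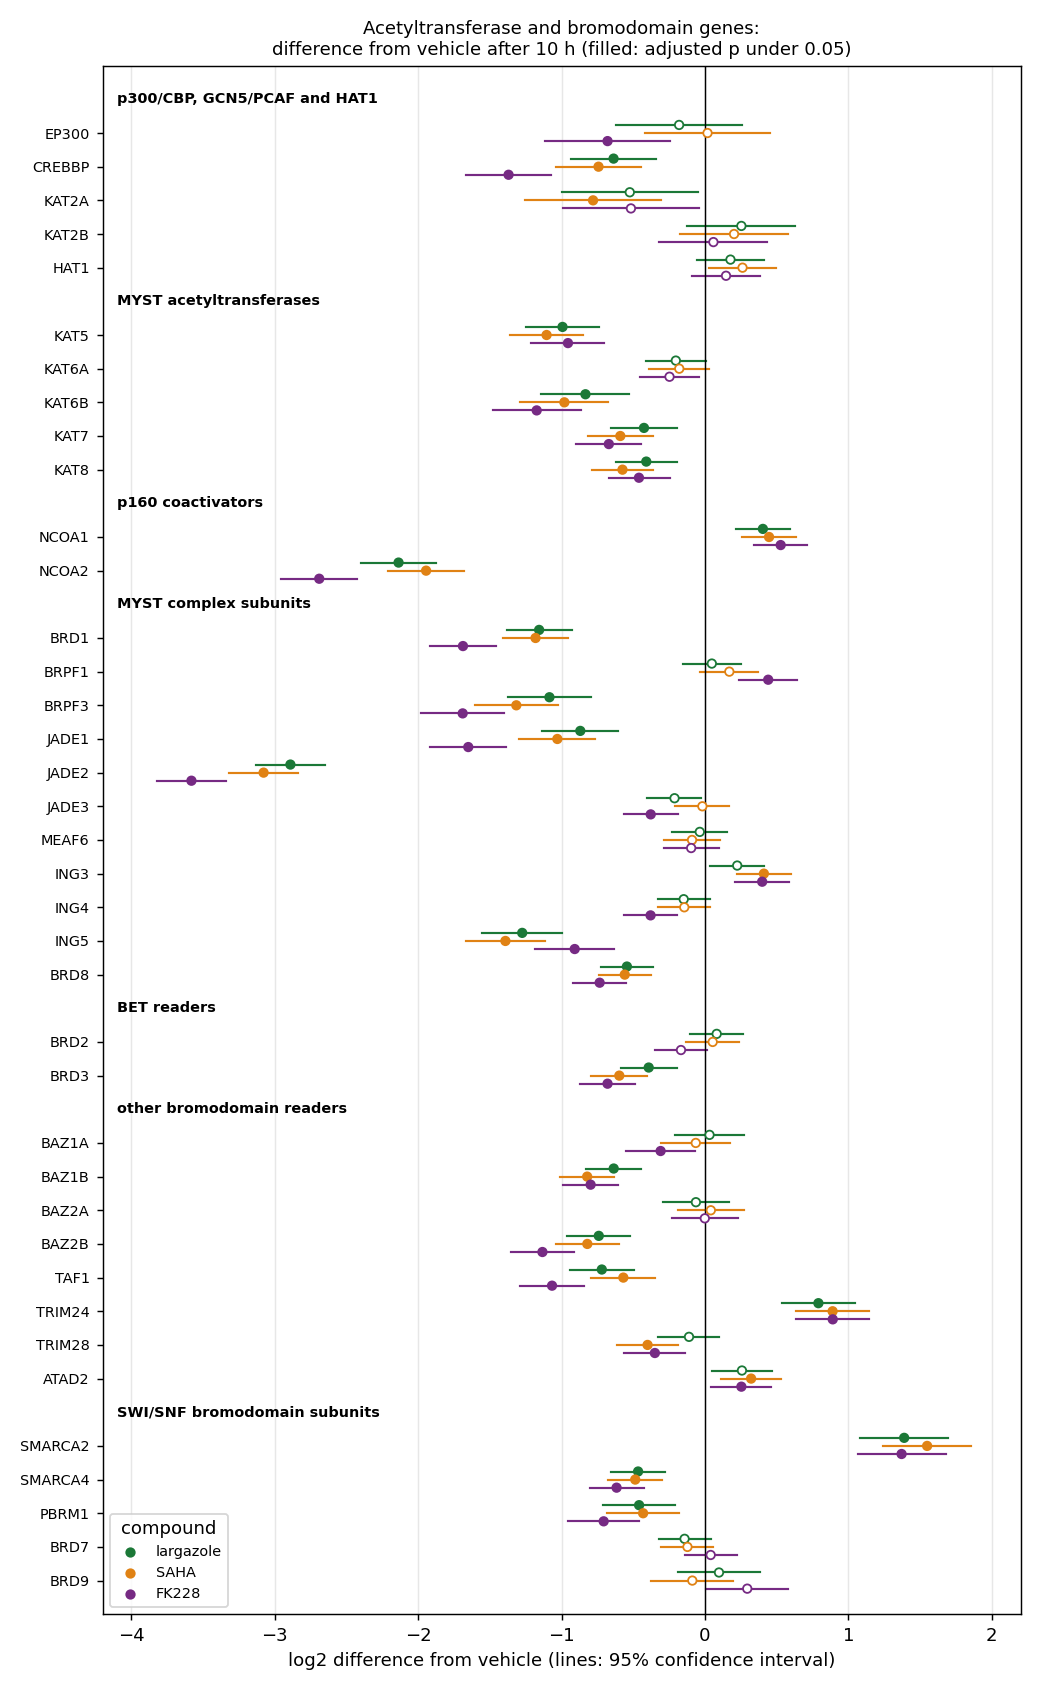
Log2 difference from vehicle for the 38 genes, ordered by role, with largazole (green), SAHA (orange) and FK228 (purple); lines are 95% confidence intervals and filled points have an adjusted p under 0.05. JADE2 and NCOA2 lie farthest to the left with each compound, and SMARCA2 lies farthest to the right.

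Among the acetyltransferases with a broad range of targets, CREBBP was called lower with each compound. CREBBP (CBP) and EP300 (p300) are closely related acetyltransferases and coactivators that carry a bromodomain of their own. CREBBP was at 8.84 and 8.68 on the vehicle arrays, 8.28 and 7.97 with largazole, 8.12 and 7.92 with SAHA and 7.35 and 7.43 with FK228. Every treated array lay below both vehicle arrays, and the FK228 arrays lay below all others. The differences were -0.64 with largazole, -0.74 with SAHA and -1.37 with FK228 (limma adjusted p = 0.00535, 0.00232 and 8.1e-05), a fall of 2.58-fold with FK228. A second CREBBP probe set fell by 0.61, 0.54 and 0.68, and the remaining one gave -0.28, -0.14 and 0.01 without a call.

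EP300 was at 6.93 and 6.55 on the vehicle arrays, 6.79 and 6.33 with largazole, 6.89 and 6.63 with SAHA and 6.15 and 5.97 with FK228. The FK228 arrays were below all others, while the largazole and SAHA arrays overlapped vehicle. Its difference was -0.68 with FK228 (95% interval -1.12 to -0.24, adjusted p = 0.0182), and -0.18 with largazole and 0.02 with SAHA, both uncalled. The call was lost at -0.59 without FK228 replicate 2 (adjusted p = 0.0838) and at -0.49 without vehicle replicate 1 (adjusted p = 0.116). Between FK228 and largazole EP300 gave -0.50 (95% interval -0.94 to -0.06, adjusted p = 0.148), which was not called. A second EP300 probe set gave -0.38 with largazole, -0.105 with SAHA and -0.54 with FK228, of which the FK228 value was called (limma adjusted p = 0.0147).

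KAT2A (GCN5) and KAT2B (PCAF) are alternative catalytic subunits of the SAGA and ATAC coactivator complexes. KAT2A fell with SAHA by 0.78 (adjusted p = 0.016), with -0.52 for largazole and -0.52 for FK228 uncalled. The SAHA call rested on single arrays: it was -0.51 without SAHA replicate 1 (adjusted p = 0.0875), -0.80 without vehicle replicate 1 (adjusted p = 0.0587) and -0.76 without vehicle replicate 2 (adjusted p = 0.0713). KAT2B gave 0.25 with largazole, 0.20 with SAHA and 0.06 with FK228, none called. HAT1, which acetylates newly made histone H4 before it is built into chromatin, gave 0.18 with largazole, 0.26 with SAHA and 0.15 with FK228, none called, and its 95% intervals reached no higher than 0.50.

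Of the 5 MYST acetyltransferases, a family named after its founding proteins, 4 fell with each compound. KAT5 (TIP60) is the catalytic subunit of NuA4, which acetylates histones H4 and H2A. It was at 7.97 and 8.03 on the vehicle arrays, 7.003 and 7.02 with largazole, 6.78 and 7.02 with SAHA and 6.95 and 7.15 with FK228. The treated groups overlapped each other and lay about 1 log2 unit below vehicle. The differences were -0.99 with largazole, -1.10 with SAHA and -0.96 with FK228 (limma adjusted p = 0.000301, 0.000159 and 0.00023). All 3 KAT5 probe sets fell with every compound, and all carry names ending in _x_at.

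KAT6B (MORF) is the partner paralogue of KAT6A (MOZ), and both acetylate histone H3. KAT6B was at 8.34 and 8.22 on the vehicle arrays, 7.28 and 7.61 with largazole, 7.38 and 7.22 with SAHA and 7.01 and 7.20 with FK228. All treated arrays lay below vehicle, with the largazole arrays the farthest apart from each other. The differences were -0.83 with largazole, -0.98 with SAHA and -1.17 with FK228 (limma adjusted p = 0.00173, 0.000691 and 0.000209). The other 3 KAT6B probe sets gave negative values throughout, from -0.06 to -0.56, of which 3 of 9 were called. KAT6A gave -0.20 with largazole, -0.18 with SAHA and -0.25 with FK228, none called, with intervals from -0.46 at the lowest to 0.03 at the highest. A second KAT6A probe set gave 0.18, 0.19 and 0.12, none called. The difference between the paralogues was not tested.

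KAT7 (HBO1) acetylates histones H3 and H4, and KAT8 (MOF) acetylates histone H4. KAT7 fell by 0.43 with largazole, 0.59 with SAHA and 0.67 with FK228. KAT8 fell by 0.41, 0.58 and 0.46. The largazole calls were lost for KAT7 at -0.35 without largazole replicate 1 (adjusted p = 0.0737) and for KAT8 at -0.37 without largazole replicate 2 (adjusted p = 0.0621). The second KAT8 probe set gave -0.60 (called), -0.57 and -0.21 (both uncalled).

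The 2 p160 coactivators measured moved in opposite directions. These proteins bind nuclear receptors that carry their ligand and bring in CREBBP and EP300. NCOA2 (TIF2, GRIP1) was at 8.77 and 8.50 on the vehicle arrays, 6.57 and 6.43 with largazole, 6.77 and 6.62 with SAHA and 5.96 and 5.94 with FK228. The vehicle arrays stood far above all others and the FK228 arrays were the lowest. The fall was 4.4-fold with largazole (-2.14), 3.85-fold with SAHA (-1.94) and 6.45-fold with FK228 (-2.69), with limma adjusted p = 1.43e-05, 1.73e-05 and 2.69e-06. NCOA2 rests on 1 tested probe set. NCOA1 (SRC1) rose by 0.40, 0.45 and 0.53 (adjusted p = 0.00521, 0.0029 and 0.00102), with no treated array overlapping vehicle. All 4 tested NCOA1 probe sets gave higher values with each compound, from 0.28 to 0.53.

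The subunits of MYST complexes included JADE2, the member with the largest fall with each compound. With largazole 6 of these 11 genes fell. With SAHA 6 fell and 1 rose, and with FK228 8 fell and 2 rose. The median differences were -0.54, -0.56 and -0.73.

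BRPF1, BRD1 (BRPF2) and BRPF3 are paralogous scaffolds that hold KAT6A, KAT6B or KAT7 and carry a bromodomain. BRD1 was at 8.39 and 8.22 on the vehicle arrays, 7.23 and 7.06 with largazole, 7.16 and 7.09 with SAHA and 6.62 and 6.62 with FK228. The largazole and SAHA arrays overlapped, and the FK228 arrays lay below them. The differences were -1.16 with largazole, -1.18 with SAHA and -1.69 with FK228 (limma adjusted p = 8.91e-05, 7.04e-05 and 9.15e-06). Both tested BRD1 probe sets fell alike, the second by 1.13, 1.08 and 1.64, and both carry names ending in _x_at.

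BRPF3 was at 7.89 and 7.70 on the vehicle arrays, 6.70 and 6.72 with largazole, 6.35 and 6.61 with SAHA and 6.22 and 5.995 with FK228. Vehicle was the highest group and FK228 the lowest, with no overlap between any of the treated groups. The differences were -1.08 with largazole, -1.32 with SAHA and -1.69 with FK228 (limma adjusted p = 0.000356, 0.000126 and 2.49e-05), a fall of 3.23-fold with FK228. BRPF3 rests on 1 tested probe set, whose name ends in _s_at. BRPF1 stood apart from its paralogues, a difference that was not tested. Its values were 0.05 with largazole (95% interval -0.15 to 0.25) and 0.17 with SAHA (95% interval -0.03 to 0.37), both uncalled, and it rose by 0.44 with FK228 (adjusted p = 0.00367).

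JADE1, JADE2 and JADE3 are paralogous scaffolds of KAT7 with PHD fingers. JADE2 was at 8.70 and 8.56 on the vehicle arrays, 5.63 and 5.85 with largazole, 5.61 and 5.49 with SAHA and 5.05 and 5.05 with FK228. The vehicle arrays lay about 3 log2 units above the others and the FK228 arrays were the lowest. This was a fall of 7.41-fold with largazole (-2.89, 95% interval -3.13 to -2.65), 8.44-fold with SAHA (-3.08, 95% interval -3.32 to -2.84) and 12.0-fold with FK228 (-3.58, 95% interval -3.82 to -3.34). Limma gave adjusted p = 3.35e-06, 2.66e-06 and 8.06e-07, and no other member changed as much with any of the compounds. The other JADE2 probe set fell by 0.73, 0.84 and 0.76, and the mean of both gave -1.81, -1.96 and -2.17.

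JADE1 was at 8.72 and 8.76 on the vehicle arrays, 7.86 and 7.88 with largazole, 7.54 and 7.87 with SAHA and 7.07 and 7.11 with FK228. The FK228 arrays formed the lowest group, apart from largazole and SAHA, which overlapped. The differences were -0.87 with largazole, -1.03 with SAHA and -1.65 with FK228 (limma adjusted p = 0.000681, 0.000266 and 1.87e-05), and all 4 probe sets fell with every compound. The paralogue JADE3 gave -0.21 and -0.02 without a call and fell by 0.38 with FK228 (adjusted p = 0.0057).

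ING proteins read methylated histone H3 and bring their complexes to it. ING5, a subunit of KAT6A, KAT6B and KAT7 complexes, was at 8.15 and 7.83 on the vehicle arrays, 6.77 and 6.66 with largazole, 6.67 and 6.53 with SAHA and 7.12 and 7.04 with FK228. Here FK228 was the highest of the treated groups, though still below vehicle. The differences were -1.27 with largazole, -1.39 with SAHA and -0.91 with FK228 (limma adjusted p = 0.00014, 8.12e-05 and 0.000462). The other 3 ING5 probe sets also gave negative values with each compound, from -0.18 to -0.71. Of these only 1 was called, -0.46 with SAHA, and the mean over all tested ING5 probe sets gave -0.61, -0.715 and -0.40.

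ING4, found with KAT7, fell by 0.38 with FK228 and gave -0.15 and -0.14 with largazole and SAHA, uncalled. ING3, a NuA4 subunit, rose by 0.41 with SAHA and 0.40 with FK228 and gave 0.23 with largazole, uncalled. The ING3 probe sets disagreed for FK228, where a second one fell by 0.61 and the mean over all 3 was -0.04. BRD8, the bromodomain subunit of NuA4, gave -0.54 with largazole, -0.56 with SAHA and -0.73 with FK228, all called, and 0.30, 0.39 and 0.13 on its other probe set, of which the SAHA value was called. MEAF6, a small subunit common to several MYST complexes, gave -0.04 with largazole, -0.09 with SAHA and -0.10 with FK228, none called, with intervals no wider than -0.29 to 0.16.

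**Figure D2:**
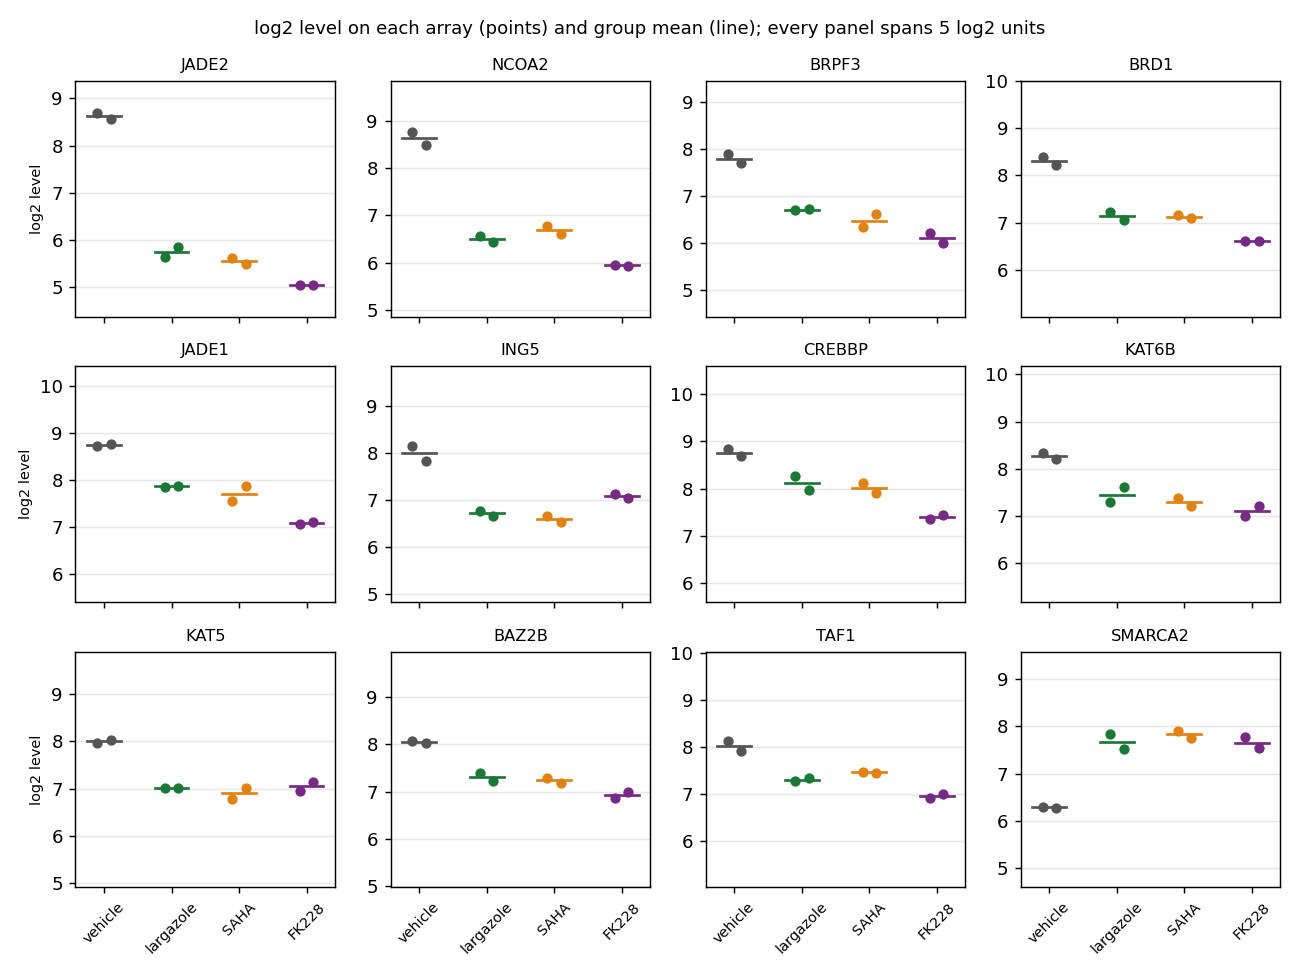
Log2 level on each of the 8 arrays (points) and the group mean (line) for the 12 members with a called change of at least 2-fold; every panel spans the same number of log2 units. In 11 panels both vehicle points are the highest, and in the SMARCA2 panel they are the lowest, at 6.30 and 6.27.

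Of the BET proteins, which bind acetylated histones through tandem bromodomains and support transcription elongation, BRD3 fell and BRD2 was uncalled. BRD3 gave -0.39 with largazole, -0.60 with SAHA and -0.68 with FK228 (limma adjusted p = 0.00709, 0.000834 and 0.000333), and a second probe set fell by 0.53, 0.60 and 0.37. BRD2 gave 0.08 with largazole, 0.05 with SAHA and -0.17 with FK228, and its other 2 probe sets ranged from -0.27 to 0.07, none called.

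Among the other bromodomain readers the BAZ paralogues split. BAZ2B was at 8.08 and 8.04 on the vehicle arrays, 7.41 and 7.23 with largazole, 7.29 and 7.19 with SAHA and 6.87 and 6.98 with FK228. All treated arrays were below vehicle and the FK228 arrays were the lowest. The differences were -0.74 with largazole, -0.82 with SAHA and -1.13 with FK228 (limma adjusted p = 0.000631, 0.00034 and 4.83e-05), from a single tested probe set. BAZ1B (WSTF), which works with an ISWI remodelling ATPase, fell by 0.64, 0.82 and 0.80, and its other probe sets gave -0.43, -0.36 and -0.43, all called, and -0.04, -0.10 and -0.09, none called. BAZ2A (TIP5), which silences ribosomal RNA genes, gave -0.06 with largazole, 0.04 with SAHA and -0.001 with FK228, none called, while another of its probe sets gave -0.29 with SAHA, called. BAZ1A (ACF1) gave 0.03 and -0.06, uncalled, and -0.31 with FK228 (limma adjusted p = 0.039). That call was lost without either FK228 array (-0.30 and -0.32) and without either vehicle array (-0.29 and -0.33). The other BAZ1A probe set gave -0.02, -0.10 and -0.58, of which the FK228 value was called.

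TAF1 is a subunit of TFIID, the general factor that recognises core promoters, and has tandem bromodomains. It was at 8.13 and 7.92 on the vehicle arrays, 7.28 and 7.33 with largazole, 7.47 and 7.44 with SAHA and 6.92 and 7.003 with FK228. The treated groups did not overlap vehicle or each other, and FK228 was the lowest. The differences were -0.72 with largazole, -0.57 with SAHA and -1.07 with FK228 (limma adjusted p = 0.000741, 0.00208 and 6.68e-05). A second TAF1 probe set gave -0.70, -0.26 and -0.64, of which the SAHA value was uncalled.

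TRIM24, a coregulator of nuclear receptors with a PHD finger and a bromodomain, rose by 0.79, 0.89 and 0.89 (limma adjusted p = 0.000915, 0.000456 and 0.000339). Its second probe set rose by 0.86, 0.99 and 0.90, and both carry names ending in _x_at. TRIM28 (KAP1), the corepressor of KRAB zinc finger proteins, fell by 0.40 with SAHA and 0.35 with FK228 and gave -0.11 with largazole, uncalled. The SAHA call for TRIM28 was lost at -0.34 without SAHA replicate 1 (adjusted p = 0.0529), and the FK228 call at -0.27 without FK228 replicate 1 (adjusted p = 0.0855), -0.35 without vehicle replicate 1 (adjusted p = 0.0607) and -0.35 without vehicle replicate 2 (adjusted p = 0.0566). ATAD2, an ATPase with a bromodomain, gave 0.26 with largazole, 0.32 with SAHA and 0.25 with FK228, of which the SAHA and FK228 values were called. The other ATAD2 probe sets gave -0.08, -0.14 and 0.35 with FK228 and 0.10 to 0.31 with largazole and SAHA, none called. The calls for ATAD2 rested on single arrays: SAHA gave 0.28 without SAHA replicate 1 (adjusted p = 0.0985) and 0.25 without vehicle replicate 2 (adjusted p = 0.126), and the FK228 call was lost without any 1 array other than vehicle replicate 1, from 0.18 to 0.30.

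The bromodomain subunits of SWI/SNF remodellers included the member that rose most. SMARCA2 (BRM) and SMARCA4 (BRG1) are the alternative ATPases of these complexes, and a complex holds one or the other. SMARCA2 was at 6.30 and 6.27 on the vehicle arrays, 7.83 and 7.52 with largazole, 7.91 and 7.76 with SAHA and 7.78 and 7.53 with FK228. The vehicle arrays were far below all treated arrays, and the 3 treated groups overlapped. The rise was 2.62-fold with largazole (1.39, 95% interval 1.08 to 1.70), 2.93-fold with SAHA (1.55, 95% interval 1.24 to 1.86) and 2.59-fold with FK228 (1.37, 95% interval 1.06 to 1.68), with limma adjusted p = 0.000151, 7.96e-05 and 9.33e-05. Of the 4 tested SMARCA2 probe sets, 3 had vehicle means above the filter value and rose with every compound, by 1.32 to 1.73. The remaining one had a vehicle mean of 3.90, under the filter value, and was tested only through the treated arrays.

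SMARCA4 moved the other way. It was at 9.52 and 9.50 on the vehicle arrays, 9.09 and 8.99 with largazole, 9.04 and 9.01 with SAHA and 8.86 and 8.93 with FK228, so the falls of 0.47, 0.49 and 0.62 were small beside the rise of its paralogue but lay outside the vehicle arrays (limma adjusted p = 0.00268, 0.00196 and 0.000465). Of 7 SMARCA4 probe sets 6 fell with every compound. The difference between the 2 genes was not tested.

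PBRM1 (polybromo), a subunit of the PBAF form of the complex, gave -0.46 with largazole, -0.43 with SAHA and -0.71 with FK228, all called. The largazole call was lost at -0.40 without largazole replicate 1 (adjusted p = 0.0712) and -0.43 without vehicle replicate 2 (adjusted p = 0.0591), and the SAHA call at -0.31 without SAHA replicate 2 (adjusted p = 0.0719) and -0.40 without vehicle replicate 2 (adjusted p = 0.0674). Another PBRM1 probe set gave 0.20, 0.11 and 0.37, of which the FK228 value was called, from a vehicle mean of 4.31, under the filter value. BRD7, a further PBAF subunit, gave -0.14 with largazole, -0.12 with SAHA and 0.04 with FK228, and BRD9, of the non-canonical form, gave 0.10 with largazole, -0.09 with SAHA and 0.30 with FK228, none called. Another BRD7 probe set gave -0.51 with largazole and -0.56 with FK228, both called, and -0.34 with SAHA, not called.

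**Figure D3:**
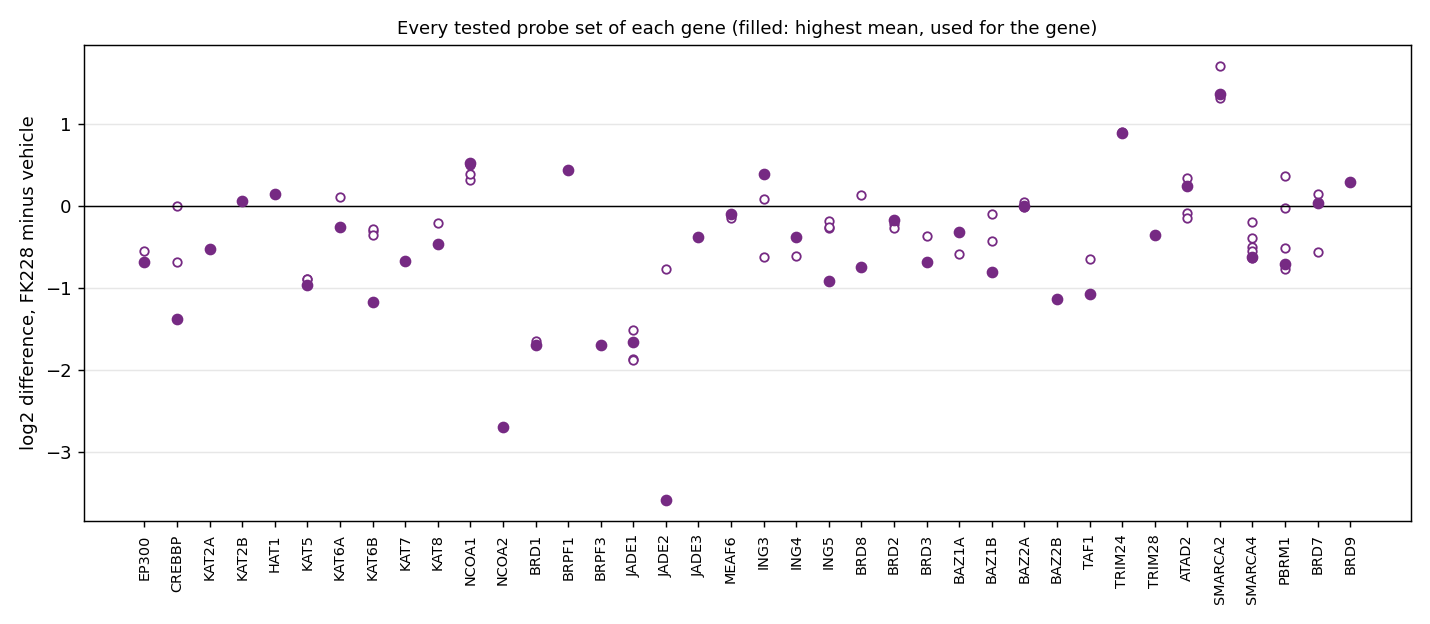
Log2 difference of FK228 from vehicle for every tested probe set (94 in all) of each of the 38 genes, with the probe set that stands for the gene filled. The 4 JADE1 points keep to 1 side of 0, as do the SMARCA2 points with a vehicle mean above the filter value. PBRM1, BRD8, ING3, ATAD2, BRD7, KAT6A, CREBBP and BAZ2A have points on both sides. The remaining SMARCA2 point and the PBRM1 point above 0 have vehicle means under the filter value.

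FK228 and largazole, given at the same dose for the same time, differed in few members. FK228 was lower for 7 of 38 and higher for 1, where 4.88% of all tested genes were lower and 4.19% were higher. The median difference over the members was -0.18, beside 0.00 over all genes. JADE1 differed by -0.78 (95% interval -1.05 to -0.52, limma adjusted p = 0.0109), CREBBP by -0.73 (95% interval -1.03 to -0.44, adjusted p = 0.0177) and JADE2 by -0.69 (95% interval -0.93 to -0.45, adjusted p = 0.0117). BRPF3 (-0.61), NCOA2 (-0.55), BRD1 (-0.53) and BAZ2B (-0.39) were the other members lower with FK228. BRPF1 was higher with FK228 by 0.39 (adjusted p = 0.0357), a call that was lost without any 1 largazole, SAHA or FK228 array, at 0.37 to 0.42.

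Each of these calls was lost when some single largazole or FK228 array was left out, which leaves that group with 1 array. Calls over all genes dropped sharply in the same fits, so the losses were not particular to the members. With any 1 of these arrays left out the difference of JADE1 stayed between -0.80 and -0.76. That of BRD1 lay between -0.615 and -0.447, and that of BAZ2B between -0.48 and -0.305. Without SAHA or vehicle arrays, which only inform the spread, 6 members were called lower. All 4 JADE1 probe sets were lower with FK228 than with largazole, by 0.62 to 1.07, and both BRD1 probe sets by 0.51 and 0.53. For CREBBP the other probe sets gave -0.07 and 0.29, and for JADE2 the second gave -0.03, none called.

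For the other 30 members no difference between the compounds was called, which does not show that they act alike. SMARCA2 differed by -0.02 (95% interval -0.33 to 0.29), KAT5 by 0.04 (95% interval -0.22 to 0.29) and TRIM24 by 0.10 (95% interval -0.16 to 0.36). ING5 was the member farthest in the opposite direction among those uncalled, at 0.37 (95% interval 0.09 to 0.64, adjusted p = 0.105). SAHA was given at another dose, so its values stand beside those of the depsipeptides with no test between them.

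**Figure D4:**
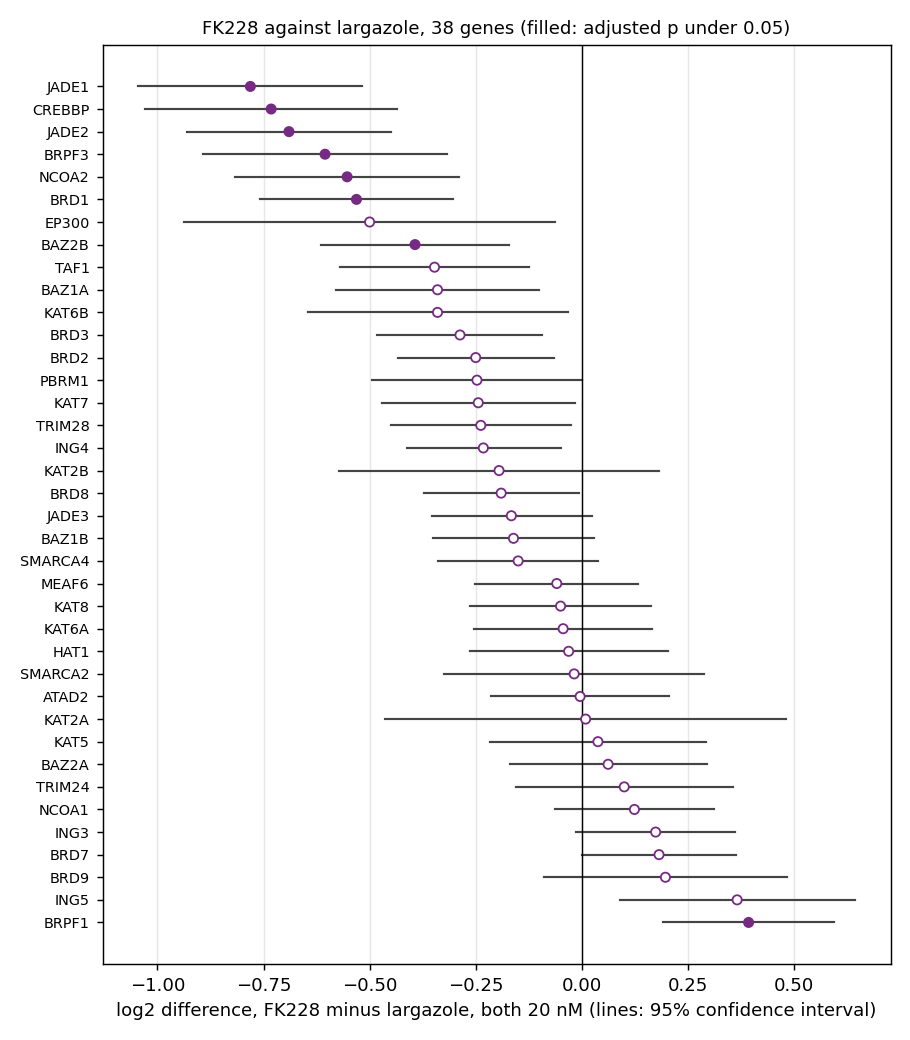
Log2 difference between FK228 and largazole, both at 20 nM, for the 38 genes in order of the difference; lines are 95% confidence intervals and filled points have an adjusted p under 0.05. Filled points below 0 run from JADE1 (-0.78) to BAZ2B (-0.39), and the filled point above 0 is BRPF1 (0.39).

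Genes of the same complexes and reader families that are not members leaned the same way. Of 90 such genes 85 were tested, of which 41 fell and 8 rose with largazole, 43 and 8 with SAHA, and 45 and 9 with FK228. These are 48.2%, 50.6% and 52.9% lower and 9.41%, 9.41% and 10.6% higher, where 23.2%, 25.2% and 27.1% of all tested genes were lower and 21.9%, 22.1% and 25.7% higher. Their median differences were -0.27, -0.35 and -0.32. In the MSL and NSL complexes of KAT8, 7, 8 and 8 of 11 genes fell. In SAGA and ATAC, 8, 10 and 9 of 18 fell, and in NuA4 4, 5 and 6 of 13 (30.8%, 38.5% and 46.2%) fell while DMAP1 (0.41) and RUVBL2 (0.34) rose with FK228. Of the 16 SWI/SNF subunits without a bromodomain 9 fell with each compound, and 3, 3 and 4 rose. Of 15 other bromodomain and YEATS domain readers 8, 7 and 8 fell. Of 12 partners of CREBBP and EP300 and related coactivators 5, 4 and 5 fell while 4, 4 and 2 rose. The median differences of these 12 genes were 0.003, 0.022 and -0.025, so this list did not lean lower by its median.

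The lowest called of these genes with each compound were NRIP1 and ZMYND8. NRIP1 (RIP140), a corepressor of nuclear receptors, was at 9.24 and 9.10 on the vehicle arrays, 6.01 and 6.11 with largazole, 6.36 and 6.28 with SAHA and 4.17 and 4.53 with FK228. It fell by 3.11, 2.86 and 4.82 (limma adjusted p = 6.06e-06, 7.24e-06 and 6.57e-07) and was lower with FK228 than with largazole by 1.71 (adjusted p = 0.00173). ZMYND8, a reader with a bromodomain, gave differences of -2.71 with largazole, -3.01 with SAHA and -4.001 with FK228, all called. The highest called were DPF3 and MLLT3. DPF3, a SWI/SNF subunit, was at 4.06 and 4.25 on the vehicle arrays, 6.19 and 6.33 with largazole, 6.10 and 6.20 with SAHA and 6.69 and 6.78 with FK228. Its vehicle arrays lay under the filter value of 4.49, so the gene was tested only through the treated arrays and the size of its rise rests on a dim baseline. It rose by 2.10, 1.995 and 2.58. MLLT3 (AF9), a YEATS domain protein, rose by 1.87, 2.15 and 1.99.

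Other falls were picked out after their values were seen. The NuA4 scaffold EPC1 gave -1.80 with largazole, -1.86 with SAHA and -2.38 with FK228, and its paralogue EPC2 gave -1.05 with largazole, -1.18 with SAHA and -1.80 with FK228. The SWI/SNF subunit ARID1A gave -1.61 with largazole, -1.47 with SAHA and -2.70 with FK228 and was lower with FK228 than with largazole by 1.09 (limma adjusted p = 0.00233), while its paralogue ARID1B gave 0.10 with largazole, -0.02 with SAHA and 0.44 with FK228, none called. KANSL1 of the NSL complex gave -1.22 with largazole, -1.38 with SAHA and -1.69 with FK228, and MSL1 of the MSL complex gave -1.21 with largazole, -1.47 with SAHA and -1.89 with FK228.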

How the data were processed

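Transcript levels of 8 samples were measured on Affymetrix U133 2.0 arrays. Each deposited value is the log2 level of a probe set. Per the submitters' processing notes, affy, RMA and limma were used, with no version, role or order; what each did is not stated there. Of the table's 54613 probe sets the platform annotation names 41091 by exactly 1 gene symbol, 1801 by several and 11721 by none.

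A filter blind to group kept the 28985 probe sets with at least 2 of 8 values at or above the overall median (4.49). One model over all arrays (limma 3.58.1, R 4.3.3) had a coefficient for each group, empirical Bayes moderation (4 residual and 3.69 prior degrees of freedom) and Benjamini-Hochberg adjustment over all tested probe sets. The fit was tested on simulated data. The number of arrays limits the precision: 95% confidence intervals had a median half-width of 0.23 for the members. A two-sided exact permutation test of 2 against 2 arrays cannot go below p = 0.333, so none was run. Gene counts use 1 probe set per gene.

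The members, related lists, markers and rules were chosen with earlier results of these data known. Full values are given for members called with an absolute log2 difference of at least 1 against vehicle, or of at least 0.5 between FK228 and largazole, and of the related genes for the 2 highest and 2 lowest called. Alternatives were no filter, a stricter filter (6.87), an intensity trend with a robust prior, a replicate block, a further quantile normalization, equal medians of 106 ribosomal protein probe sets, array weights, omission of probe sets ending in _x_at or _s_at, a gene's mean over probe sets, only the 4 arrays compared, and each array left out. An array left alone in its group is assumed to vary like the others. Figures were drawn with matplotlib 3.10.9.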

Additional observations from a re-analysis of the deposited data

How the results depend on the processing

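Of the member calls, 17 of 21 with largazole, 19 of 25 with SAHA, 21 of 29 with FK228 and 0 of 8 between FK228 and largazole kept their direction and their call under every alternative that could test the gene; at an unadjusted p under 0.05, limma's main setting gave 3 members higher and 17 lower with FK228 than with largazole. Leaving out _x_at and _s_at probe sets left 26 members. Members called with largazole then numbered 1 higher and 11 lower, with SAHA 3 and 13 (median difference -0.27), with FK228 13 lower (median -0.36), and 4 were lower with FK228 than with largazole. Over all genes the calls were 2240 higher and 2295 lower with largazole and 2288 and 2482 with SAHA. With FK228 2707 were lower, and 474 were lower with FK228 than with largazole. Fewer genes were tested there than in the main setting. Of the genes called against vehicle, 49.4% (largazole), 48.0% (SAHA) and 49.2% (FK228) were higher, and 45.5% of those called between FK228 and largazole. Under that setting the values of BRD8 turned to 0.30, 0.39 and 0.13 and those of PBRM1 to 0.20, 0.11 and 0.37 (largazole, SAHA, FK228), and that of ATAD2 with FK228 to -0.084, because other probe sets then stood for these genes. The mean of all probe sets turned ING3 with FK228 to -0.043 and moved the SAHA median to -0.22. The stricter filter tested 36 members and moved the largazole median to -0.40. Members higher with largazole were 5 under the stricter filter, the intensity trend, the replicate block, quantile normalization and array weights. Over all genes these settings called 2586, 3201, 3297, 3106 and 3152 higher with largazole, against 2936 in the main setting. The cause of these moves was not tested. Every member value on every array was above the filter value, but not always by much. The lowest was 5.05, for JADE2 with FK228. The sizes of the JADE2 fall with FK228 and of its difference from largazole thus rest on levels near the filter value.

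Between FK228 and largazole, members called higher were 0 without a filter (2 at an unadjusted p under 0.05) and with only the 4 arrays (2), 2 under the stricter filter and 2 with the replicate block. Members called lower were 3 without a filter, 11 under the stricter filter and 12 with the intensity trend. Over all genes this comparison called 561 higher and 653 lower, but 242 and 320 without a filter, 949 and 975 under the stricter filter, 945 and 1079 with the intensity trend, 825 and 1039 with the replicate block and 270 and 354 with only the 4 arrays.

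With each array left out in turn, members called higher and lower were 3 to 3 and 16 to 19 with largazole, 4 to 6 and 18 to 20 with SAHA, 5 to 6 and 20 to 24 with FK228, and 0 to 1 and 0 to 6 between FK228 and largazole. Over all genes, calls in both directions were fewer than in the main setting in every one of these fits. The drop was largest where a compared group lost an array, so these ranges do not set the members apart from other genes. The members' median difference stayed between -0.384 and -0.279 with largazole, -0.43 and -0.387 with SAHA, and -0.557 and -0.403 with FK228. Between FK228 and largazole it stayed between -0.184 and -0.153.

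Same-numbered arrays deviated together weakly (r of 0.13 to 0.27 between groups). The labels do not say what a number marks, so whether these arrays share a culture or a run is not known. With 2 numbers per group these values cannot settle it, and the main fit treats the arrays as unpaired. With the replicate block 8 members were lower and 2 higher with FK228 than with largazole. It added calls between FK228 and largazole for EP300 (-0.50, limma adjusted p = 0.024) and ING5 (0.37, adjusted p = 0.0407), and against vehicle for KAT2A, ING3 and ATAD2 with largazole, HAT1 with SAHA, and KAT2A and BRD9 with FK228.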
